A study of Rattus norvegicus with 12 samples.

Results

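Fatty acid synthesis in rat liver was followed through 5 of the 34194 gene IDs measured. They were chosen by their Ensembl rat gene IDs: Srebf1 (ENSRNOG00000003463), Acly (ENSRNOG00000016924), Acaca (ENSRNOG00000034013), Fasn (ENSRNOG00000045636) and Scd (ENSRNOG00000013552). All 5 IDs were listed above 0 in every library, and all 5 passed the filter for testing, a mean FPKM of at least 1. FPKM is the number of fragments of a gene relative to its transcript length and to the fragments counted in the library, so levels of genes of different length can be set side by side. The symbols are those of the selection, since no table used here pairs the IDs with names.

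RNA was sequenced from livers of male Wistar rats, with 3 libraries in each of 4 groups that had begun with 12 rats each. The study's lesion counts cover fewer than 12 rats in NDEA and in NDEA+FYT, and all 12 in Control and in NDEA+CFT-1. Livers were taken at week 20. Control rats were given saline injections and water. Rats of the NDEA group were given N-nitrosodiethylamine, a chemical that causes liver tumors, with water to drink: 25 mg/kg was injected intraperitoneally 2 times per week, between weeks 2 and 9. The NDEA+FYT and NDEA+CFT-1 groups had the same injections and drank for 20 weeks a green tea infusion of 3 g in 100 ml, from the common tea Fuyun6 (FYT) or from CFT-1, a variety rich in epigallocatechin-3-gallate. The study asked whether the teas hold back chemically induced liver cancer. Whether nodules or the liver around them were sampled is not given in the sources used here. Neither is the feeding state at sampling or the hour at which livers were taken. The study does report lower fodder intake and body weight in NDEA than in Control rats. It reports no significant difference in fodder intake between CFT-1 and Control rats, or between FYT and NDEA rats.

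Fatty acid synthesis turns surplus carbohydrate into fat, and the liver is one of its main sites. Srebf1 encodes SREBP-1, a membrane-bound transcription factor that is cut free and enters the nucleus when insulin and sterol signals call for lipid synthesis. Its activity depends on that cutting as well as on its mRNA. ATP citrate lyase (Acly) makes cytosolic acetyl-CoA from citrate, acetyl-CoA carboxylase alpha (Acaca) turns it into malonyl-CoA, fatty acid synthase (Fasn) builds palmitate from both, and stearoyl-CoA desaturase (Scd) puts a double bond into the finished saturated fatty acid. The genes of these enzymes are known targets of SREBP-1.

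Promoter sequences were available for Srebf1 (with 2 start sites), Acly and Scd, from RefSeq, build GRCr8, which is a later build than the Rnor_6.0 of the authors' mapping. The 250 bases before each start site are shown because SREBP-1 is known to act on lipogenic promoters together with factors that bind CCAAT and GC boxes. Capitals mark the inverted CCAAT box (ATTGG, or CCAAT on the other strand) and the GC box (GGGCGG, or CCGCCC on the other strand). The windows lie on the minus strand at chr10:45529165-45529414 (Srebf1, first start), chr10:45519011-45519260 (Srebf1, second start), chr10:85963632-85963881 (Acly) and chr1:253231732-253231981 (Scd).
Srebf1, first start: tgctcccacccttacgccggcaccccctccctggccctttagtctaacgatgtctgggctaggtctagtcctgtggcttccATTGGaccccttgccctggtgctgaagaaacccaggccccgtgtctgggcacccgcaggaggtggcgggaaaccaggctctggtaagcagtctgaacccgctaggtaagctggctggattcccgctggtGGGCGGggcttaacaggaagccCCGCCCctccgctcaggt
Srebf1, second start: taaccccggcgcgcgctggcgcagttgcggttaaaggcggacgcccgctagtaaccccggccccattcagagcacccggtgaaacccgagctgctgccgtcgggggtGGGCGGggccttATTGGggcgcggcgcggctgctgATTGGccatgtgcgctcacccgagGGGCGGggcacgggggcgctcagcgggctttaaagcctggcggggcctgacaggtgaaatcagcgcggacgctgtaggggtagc
Acly: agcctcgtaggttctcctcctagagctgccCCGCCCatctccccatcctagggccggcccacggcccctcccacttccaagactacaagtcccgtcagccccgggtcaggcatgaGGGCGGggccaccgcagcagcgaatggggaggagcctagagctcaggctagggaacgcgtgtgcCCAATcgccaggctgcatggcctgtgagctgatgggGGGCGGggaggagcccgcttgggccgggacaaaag
Scd: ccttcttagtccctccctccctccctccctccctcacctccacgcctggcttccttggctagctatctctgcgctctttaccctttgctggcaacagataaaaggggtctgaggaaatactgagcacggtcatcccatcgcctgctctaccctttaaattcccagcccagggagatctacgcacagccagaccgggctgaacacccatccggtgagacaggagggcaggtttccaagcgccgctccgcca

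The first Srebf1 window held 1 inverted CCAAT box and 2 GC boxes, the second 2 and 2, and the Acly window 1 and 3. The Scd window held neither, and its GC content was 58.8%, against 64.0% to 70.4% in the other windows. The E-box CACGTG, an SRE-like motif (TCAC, then any 1 base, then CCAC) and an LXR site pair (TGACCT in 2 copies with any 4 bases between), searched on both strands, were in none of the 4 windows. Of the 33469 rat promoter windows of this length, 34.0% held an inverted CCAAT box, 30.5% a GC box, 5.59% the E-box, 0.974% the SRE-like motif and 0.00299% the LXR pair. No marked motif overlapped another. A match of letters is a description of the sequence. Sites that depart from the letters searched, or that lie farther from the start site, are not covered. The lack of a match therefore does not show that a window has no site for SREBP-1 or LXR. No promoter of Fasn or Acaca was used here.

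The deposited FPKM values moved in whole steps of 1 counted read, which gave the reads behind each value. The libraries held 15495302 to 25718704 reads on genes, and the 5 genes had from 74 reads (Acaca, NDEA+CFT-1 replicate 2) to 26439 reads (Scd, Control replicate 3) in a library. The 95% Poisson intervals given below cover counting error only. A second scale, median-of-ratios scaling, divides each library by a size factor. It was taken over the genes above 0 in every library with a mean FPKM of at least 1. These factors were 0.80 to 1.095 except in NDEA replicate 1, at 1.305, a library whose median correlation with the other 11 libraries was 0.922 against 0.958 to 0.977 for the rest. NDEA+CFT-1 replicate 2 had a factor of 0.84 and the second lowest median correlation.

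**Figure D1:**
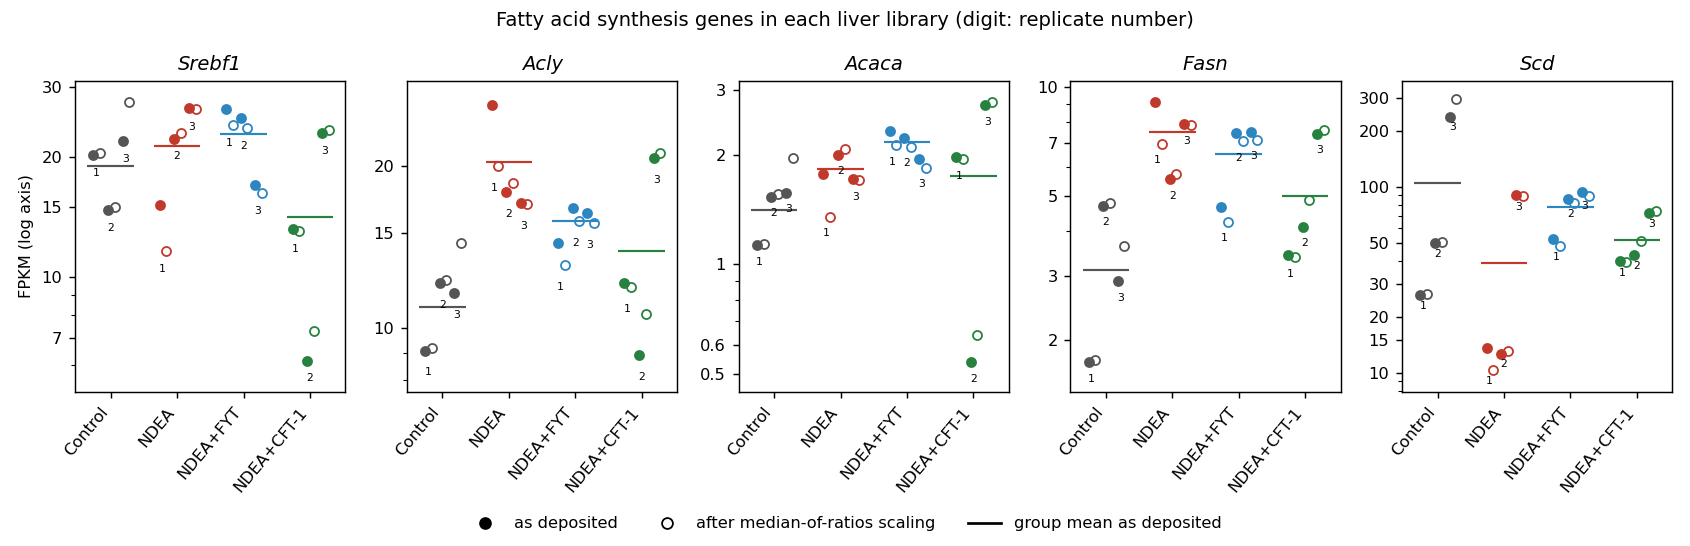
FPKM of the 5 genes in each of the 12 libraries, on a log axis in each panel; filled points are values as deposited, open points are values after median-of-ratios scaling, horizontal lines are group means of the deposited values, and digits are replicate numbers. Fasn and Acly of the 3 NDEA libraries lie above all 3 Control libraries on both scales, and Scd spreads 18.9-fold over the libraries.

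The levels differed widely between the genes. Scd had the highest mean level over the 12 libraries, 68.4 FPKM, followed by Srebf1 with 19.3, Acly with 15.3, Fasn with 5.55 and Acaca with 1.78 FPKM. This order of means did not hold in every library: Acly was above Srebf1 in NDEA replicate 1 (1.73 times its FPKM) and NDEA+CFT-1 replicate 2 (1.45 times), and Scd was below Srebf1 in NDEA replicates 1 and 2 (0.903 and 0.57 times). The distance between lowest and highest library was 2.92-fold for Acly, 4.31-fold for Srebf1, 5.05-fold for Acaca, 5.25-fold for Fasn and 18.9-fold for Scd.

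Srebf1, the gene of the regulator, had 20.2, 14.7 and 21.9 FPKM in Control, 15.1, 22.2 and 26.5 in NDEA, 26.3, 25.0 and 17.0 in NDEA+FYT, and 13.2, 6.15 and 22.9 in NDEA+CFT-1 (replicates 1 to 3). The 4 groups overlapped, and the 2 lowest libraries as deposited were both of NDEA+CFT-1. After scaling the 2 lowest were NDEA+CFT-1 replicate 2 at 7.3 FPKM and NDEA replicate 1 at 11.6 FPKM, and the highest was Control replicate 3 at 27.4 FPKM. The lowest value, 6.15 FPKM in NDEA+CFT-1 replicate 2, rested on 563 reads (95% interval 5.65 to 6.68 FPKM), so the gap to the other libraries is wider than counting error. Group means were 18.9 ± 3.74 FPKM in Control, 21.3 ± 5.78 in NDEA, 22.8 ± 5.05 in NDEA+FYT and 14.1 ± 8.4 in NDEA+CFT-1 (SD, n = 3). With the groups ordered by mean, from NDEA+CFT-1 over Control and NDEA to NDEA+FYT, neighbours differed by less than the larger SD of the pair.

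Acly had 9.08, 12.1 and 11.6 FPKM in Control, 26.0, 17.9 and 17.1 in NDEA, 14.4, 16.7 and 16.4 in NDEA+FYT, and 12.1, 8.92 and 20.7 in NDEA+CFT-1. All NDEA libraries were above all Control and all NDEA+FYT libraries, and the NDEA+CFT-1 libraries ran from the lowest of the 12 as deposited to the second highest. The 26.0 FPKM of NDEA replicate 1 fell to 20.0 after scaling, and the 3 NDEA libraries then lay between 17.0 and 20.0 FPKM, still above the 9.19 to 14.4 of Control and the 13.1 to 15.8 of NDEA+FYT. Group means as deposited were 10.9 ± 1.62 FPKM in Control, 20.4 ± 4.93 in NDEA, 15.8 ± 1.3 in NDEA+FYT and 13.9 ± 6.11 in NDEA+CFT-1 (SD, n = 3).

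Acaca, the gene of the enzyme that makes malonyl-CoA, was the least abundant of the 5 in FPKM. It had 1.13, 1.53 and 1.57 FPKM in Control, 1.77, 2.00 and 1.71 in NDEA, 2.32, 2.22 and 1.94 in NDEA+FYT, and 1.97, 0.54 and 2.73 in NDEA+CFT-1. Group means were 1.41 ± 0.246, 1.83 ± 0.153, 2.16 ± 0.199 and 1.74 ± 1.11 FPKM in that order (SD, n = 3). The Control libraries were below the NDEA and the NDEA+FYT libraries as deposited, but not after scaling, where Control replicate 3 stood at 1.96 and NDEA replicate 1 at 1.35 FPKM. NDEA+CFT-1 held both the lowest and the highest library, and its replicate 2, with 74 reads, had an interval of 0.424 to 0.678 FPKM.

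Fasn had 1.74, 4.71 and 2.91 FPKM in Control, 9.11, 5.57 and 7.93 in NDEA, 4.66, 7.49 and 7.50 in NDEA+FYT, and 3.44, 4.11 and 7.44 in NDEA+CFT-1. The NDEA libraries were above all Control libraries, and the tea groups lay across the gap, each with at least 1 library below the highest Control. Group means were 3.12 ± 1.5 FPKM in Control, 7.54 ± 1.8 in NDEA, 6.55 ± 1.64 in NDEA+FYT and 5.0 ± 2.14 in NDEA+CFT-1 (SD, n = 3). After scaling, the NDEA libraries lay between 5.77 and 7.87 FPKM and the Control libraries between 1.76 and 4.79.

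Scd, the desaturase gene, spread most. It had 26.1, 49.9 and 239 FPKM in Control, 13.6, 12.7 and 90.4 in NDEA, 52.8, 86.4 and 94.4 in NDEA+FYT, and 39.8, 43.2 and 72.2 in NDEA+CFT-1. In each of the 4 groups replicate 3 was the highest library, as deposited and after scaling. The highest library was Control replicate 3 and the 2 lowest were NDEA replicates 1 and 2, and in both groups the remaining livers lay far from these. The 2 tea groups were narrow, with a highest library 1.79 times the lowest for FYT and 1.81 times for CFT-1. Group means were 105 ± 117 FPKM in Control, 38.9 ± 44.6 in NDEA, 77.9 ± 22.1 in NDEA+FYT and 51.7 ± 17.8 in NDEA+CFT-1 (SD, n = 3). On the scale of log2(FPKM + 1) the SD of Scd within groups was 1.17, above that of 99.2% of the 11854 genes tested, whose median was 0.30. That of Srebf1 was 0.53 (84.8%), of Fasn 0.43 (75.0%), of Acly 0.35 (61.1%) and of Acaca 0.35 (60.5%).

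The groups were compared with limma on log2(FPKM + 1), all 4 groups in 1 fit, with Benjamini-Hochberg adjustment over all 11854 genes tested, with calls made at an adjusted p under 0.05. None of the 5 genes was called in any of the 6 comparisons between groups, and neither was any other gene, so the share called was 0% in each comparison of this fit. The counts at an unadjusted p under 0.05 are therefore given beside each comparison, and they are not calls. Fitted with voom on the recovered reads, again 0 genes were called in each comparison. In data simulated for all 11854 genes tested, limma called 30% of 200 genes drawn from them and given a log2 change of 1 in NDEA against Control, and 94.5% of 200 given a change of 2. These shares are over genes of all levels and spreads and are not those for the 5 members. The simulated noise was independent between genes and had the same SD in every library of a gene, while the real libraries differed in spread. The shares therefore do not give how many such changes would be called in the real libraries. Differences below are of log2(FPKM + 1), which can understate changes of low genes such as Acaca. With voom, Acaca stood at -0.34 in NDEA+CFT-1 minus NDEA, against -0.13 on log2(FPKM + 1). It stood at -0.57 in NDEA+CFT-1 minus NDEA+FYT, against -0.29. In NDEA+CFT-1 minus Control its voom value was the smaller, 0.047 against 0.099. In whole liver, fewer cells of a type and less RNA per cell cannot be told apart.

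The first comparison asks how these genes differed between carcinogen-injected and saline-injected livers without tea. Against Control, Fasn was 1.09 higher in NDEA (95% interval 0.40 to 1.79, limma adjusted p = 0.524) and Acly was 0.83 higher (0.25 to 1.41, adjusted p = 0.524). These 2 were the members with an unadjusted p under 0.05, which 1031 genes reached (8.7% of those tested, and 1028 genes with voom). Srebf1 differed by 0.14 (-0.68 to 0.96) and Acaca by 0.23 (-0.37 to 0.83), and Scd was 1.39 lower in mean with an interval from -3.14 to 0.35. Acly, Acaca and Fasn were without overlap between the 2 groups, as were 12.3% of all genes tested. The median over all genes was itself 0.20 higher in NDEA. After median-of-ratios scaling, where that median was 0.0047, Fasn stood at 0.90, Acly at 0.61, Acaca at 0.088, Srebf1 at -0.079 and Scd at -1.62. Without NDEA replicate 1, as deposited, Fasn stood at 0.96 and Acly at 0.65. Without Control replicate 1, as deposited, Acaca stood at 0.145. On the log2 scale of the recovered reads relative to library size, voom gave a difference of 1.37 for Fasn, 0.89 for Acly and 0.39 for Acaca.

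The size of the Scd difference moved with single livers, and its sign did not change when any 1 of the 12 was left out. It was -2.29 without NDEA replicate 3 and -0.50 without Control replicate 3. Scd had an unadjusted p under 0.05, as Acly and Fasn did, without NDEA replicate 3 (12.7% of all genes in that fit), without Control replicate 1 (6.51%) and with a replicate block (9.42%). With libraries weighted by how well they followed the other libraries of their group, it turned to 0.47.

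**Figure D2:**
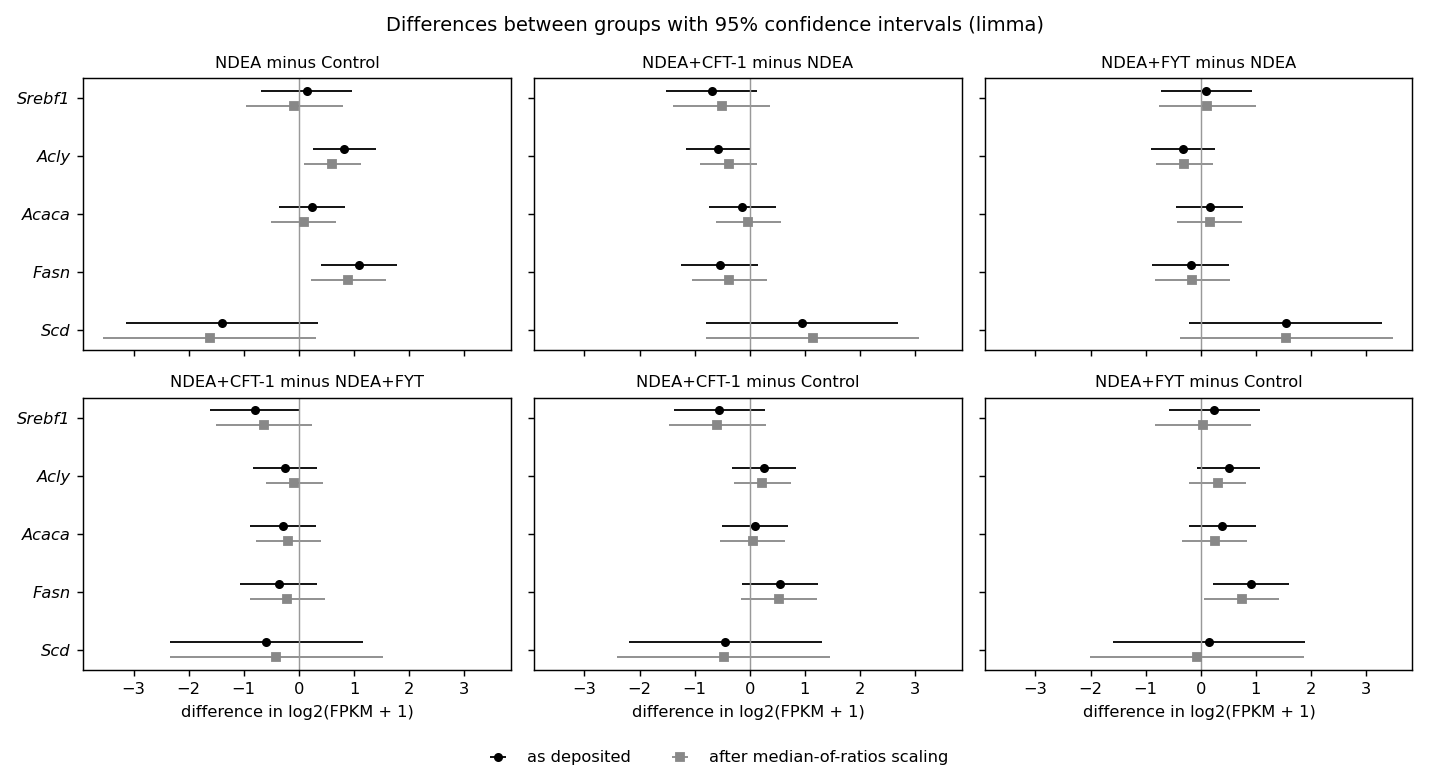
Difference in log2(FPKM + 1) between 2 groups for each gene, in 6 comparisons, with 95% confidence intervals from limma; circles are values as deposited and squares are values after median-of-ratios scaling. The intervals of Fasn and Acly lie above 0 in NDEA against Control on both scales, and the intervals of Scd are the widest in every panel.

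CFT-1 tea was compared with NDEA alone to ask whether the tea shifts these genes in injected livers. Against NDEA, NDEA+CFT-1 was lower by 0.69 for Srebf1 (interval -1.52 to 0.13, limma adjusted p = 0.450), lower by 0.57 for Acly (-1.15 to 0.0049, adjusted p = 0.400) and lower by 0.54 for Fasn (-1.24 to 0.15, adjusted p = 0.476). Acaca differed by -0.13 (-0.74 to 0.47) and Scd by 0.95 (-0.79 to 2.70). None of the 5 had an unadjusted p under 0.05, against 1494 genes (12.6%; 1410 with voom, among them Acly), and the 5 genes overlapped between the groups, where 16.8% of all genes did not. These differences moved both ways when 1 liver was left out. Without NDEA+CFT-1 replicate 2, which as deposited was lowest of all in Srebf1, Acly and Acaca, Srebf1 stood at -0.24, Acly at -0.32, Fasn at -0.46 and Acaca at 0.24. Without NDEA+CFT-1 replicate 3, the highest of its group in all 5 genes, Srebf1 stood at -1.11, Acly at -0.88, Fasn at -0.82 and Acaca at -0.40, and 3 of the 5 genes (Srebf1, Acly and Fasn) then had an unadjusted p under 0.05, still with 0 called, where 11.3% of all genes in that fit were under 0.05. Without NDEA replicate 1, Srebf1 stood at -0.91, with an unadjusted p under 0.05 (8.92% of all genes), Acly at -0.39 and Fasn at -0.41. Without NDEA replicate 3, 2 of the genes (Acly and Scd) were under 0.05, as were 14.1% of all genes. With library weights Srebf1 was under 0.05 (18.2% of all genes), and with only genes averaging 5 FPKM or more, Acly was (10.6%). Scd ranged from 0.48 without NDEA replicate 2 to 1.85 without NDEA replicate 3, and it turned to -0.19 with library weights. The median over all genes was -0.16 in this comparison, and after scaling Srebf1 stood at -0.51, Acly at -0.38, Fasn at -0.37, Acaca at -0.031 and Scd at 1.14.

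FYT tea was compared with NDEA alone in the same way. Scd had the widest difference, 1.54 higher with FYT (interval -0.20 to 3.28, limma adjusted p = 0.9996), and it was 2.44 without NDEA replicate 3, 1.07 without NDEA replicate 2 and 0.42 with library weights. Acly differed by -0.32 (-0.90 to 0.25), Fasn by -0.18 (-0.88 to 0.52), Acaca by 0.16 (-0.44 to 0.76) and Srebf1 by 0.10 (-0.72 to 0.93). None of the 5 had an unadjusted p under 0.05, which 176 genes reached (1.48%; 142 with voom). Without 1 library, Scd passed that threshold in 2 cases, without Control replicate 3 (1.82% of all genes) and without NDEA replicate 3 (2.92%), and it did so with a replicate block (1.65%). Acly alone was without overlap, as were 5.95% of all genes, and its difference was -0.14 without NDEA replicate 1. Both tea comparisons share the 3 NDEA libraries, so their values are not independent of each other.

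The 2 teas were also compared directly. Both infusions were made with the same weight of tea per volume of water. The paper reports higher contents of catechins, polyphenols and caffeine in the CFT-1 infusion, so the doses of these were not matched. NDEA+CFT-1 was 0.80 lower than NDEA+FYT for Srebf1 (interval -1.62 to 0.023, limma adjusted p = 0.896), 0.34 lower without NDEA+CFT-1 replicate 2 and 1.21 lower without NDEA+CFT-1 replicate 3. The other differences were -0.25 for Acly (-0.83 to 0.33), -0.29 for Acaca (-0.90 to 0.31), -0.36 for Fasn (-1.06 to 0.33) and -0.59 for Scd (-2.33 to 1.16). All 5 intervals reach to both sides of 0, so as deposited neither a difference nor likeness of the teas was shown for any of the genes. None of the 5 had an unadjusted p under 0.05, against 642 genes (5.42%; 672 with voom, among them Srebf1). All 5 overlapped between the teas, while 21.2% of all genes did not. Without NDEA+CFT-1 replicate 2, Acly stood at 0.0052 and Acaca at 0.076. Without NDEA+CFT-1 replicate 3, Acly and Acaca both stood at -0.56 and Fasn at -0.64, and 2 genes (Srebf1 and Acly) had an unadjusted p under 0.05, where 5.13% of all genes did. Without NDEA+FYT replicate 3, Srebf1 had one as well, where 4.11% of all genes did, and so it had with library weights (15.3% of all genes). The median over all genes was -0.14 here, and after scaling, where that median was 0.0032, Srebf1 stood at -0.63, Acly at -0.083, Acaca at -0.20, Fasn at -0.21 and Scd at -0.41.

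Each tea group was set against Control as well, to ask how far the injected, tea-drinking livers stood from uninjected ones. With FYT, Fasn was 0.91 higher (interval 0.22 to 1.61, limma adjusted p = 0.844), and 450 genes (3.8%; 528 with voom) had an unadjusted p under 0.05. Acly differed by 0.50 (-0.073 to 1.08) and Acaca by 0.39 (-0.21 to 0.99), both without overlap as deposited, as were 20.4% of all genes, and both overlapping after scaling. Acly, Acaca and Fasn were under 0.05 without NDEA+CFT-1 replicate 2 (5.5% of all genes), Acly and Fasn without NDEA+CFT-1 replicate 3 (3.26%), and 0 of the 5 without Control replicate 1 (3.95%). With all libraries, Acly, Acaca and Fasn were under 0.05 when the 2 groups were fitted alone (9.97% of all genes) and with library weights (13.4%), and 0 of the 5 after quantile normalization (2.94%). Srebf1 differed by 0.25 (-0.57 to 1.07) and Scd by 0.15 (-1.60 to 1.89). The median over all genes was 0.18 higher with FYT, and after scaling, where it was 0.0079, Fasn stood at 0.74, Acly at 0.30, Acaca at 0.25, Srebf1 at 0.041 and Scd at -0.067. With CFT-1, Fasn differed by 0.55 (-0.15 to 1.25), Acly by 0.25 (-0.32 to 0.83), Acaca by 0.099 (-0.50 to 0.70), Srebf1 by -0.55 (-1.37 to 0.27) and Scd by -0.44 (-2.19 to 1.30). The Srebf1 difference with CFT-1 was -0.097 without NDEA+CFT-1 replicate 2 and -0.97, with an unadjusted p under 0.05 (3.24% of all genes), without NDEA+CFT-1 replicate 3. That of Fasn was 0.27 without NDEA+CFT-1 replicate 3, 0.29 without Control replicate 1 and 0.82, again under 0.05 (3.65% of all genes), without Control replicate 2. Acaca stood at 0.47, also under 0.05 (5.34% of all genes), without NDEA+CFT-1 replicate 2. Scd with CFT-1 stood at -1.12 without Control replicate 1, and it turned to 0.46 without Control replicate 3 and to 0.28 with library weights. In the fit of all libraries at equal weight, none had an unadjusted p under 0.05 with CFT-1, against 385 genes (3.25%; 398 with voom), while Acly and Acaca were under 0.05 with library weights (1661 of all 11854 genes). As deposited none was without overlap, against 8.39% of all genes. These comparisons share the 3 Control libraries with that of NDEA.

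One test per gene for any difference among the 4 groups gave an unadjusted p of 0.0241 for Fasn and 0.0480 for Acly (limma F test, adjusted p = 0.791 for both), and 6.22% of all genes were under 0.05. After median-of-ratios scaling these were 0.0658 and 0.137 (limma F test, adjusted p = 0.733 and 0.774), and after scaling or quantile normalization 0 of the 5 genes were under 0.05 (6.8% and 5.14% of all genes). The same count of 0 was found without Control replicate 1, without Control replicate 3 and without NDEA replicate 1 (4.96%, 6.71% and 6.45% of all genes). Without each of the other 9 libraries in turn the count was 1 to 3 of the 5 (4.11% to 10.5% of all genes), with 3 without NDEA+CFT-1 replicate 3 (4.62% of all genes) and 2 without NDEA+CFT-1 replicate 2 (5.11%). As deposited, those of Srebf1, Acaca and Scd were 0.204, 0.535 and 0.263.

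The 9 livers of injected rats were then compared with the 3 Control livers for each gene, by a two-sided exact permutation test over the 220 assignments of the Control label, whose smallest p is 0.00455. This test was run for the 5 genes only, so no share of all genes stands beside its p. As deposited, the median over all genes was itself above Control, by 0.20 in NDEA, 0.18 in NDEA+FYT and 0.026 in NDEA+CFT-1. Fasn was 0.85 higher in the injected livers (exact p = 0.0182, unadjusted, 5 genes tested) and 0.72 higher after scaling (exact p = 0.0273). Without Control replicate 1, the lowest of the 12 in Fasn, the difference was 0.59 (exact p = 0.145), and without Control replicate 3 it was 0.85 (exact p = 0.0727). Acly was 0.53 higher (exact p = 0.0773; 0.38 after scaling, exact p = 0.105) and Acaca 0.24 higher (exact p = 0.305; 0.13 after scaling, exact p = 0.564). As deposited and without NDEA+CFT-1 replicate 2, the lowest library in both genes, these became 0.63 (exact p = 0.0182) and 0.35 (exact p = 0.00606). These were the lowest exact p of Acly and Acaca over the settings run, and the highest were 0.2 and 0.677. Without Control replicate 1 the differences were 0.413 for Acly and 0.154 for Acaca. With a library left out fewer assignments remain, so the smallest possible p is then above 0.00455. Srebf1 differed by -0.054 (exact p = 0.918) and Scd by -0.56 (exact p = 0.505).

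The 5 genes did not all follow each other from liver to liver. Acly and Fasn, the enzymes at the start and the end of palmitate synthesis, had the highest correlation of the 10 pairs over the 12 libraries (Pearson r = 0.863, permutation p = 3e-04, adjusted over the 10 pairs 0.003; Spearman rho = 0.839, adjusted 0.0116). It was 0.918 without NDEA replicate 1 and NDEA+CFT-1 replicate 2, the libraries farthest from the median of Acly, and 0.819 after scaling. With each group centred on its own mean r was 0.738, below the 0.808 of Srebf1 with Acaca and the 0.754 of Acly with Acaca, and the exact permutation within groups gave p = 0.0247, adjusted 0.247. On the scaled values, Fasn ranked number 15 among the 11853 other genes by its r with Acly, and Acly number 17 by its r with Fasn.

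Acaca, which catalyzes the step between them, had a lower r with Acly as deposited (r = 0.697, permutation p = 0.00963, adjusted 0.0481; rho = 0.636, adjusted 0.148), and r was 0.607 (adjusted p = 0.110) after scaling and 0.811 without NDEA replicate 1 and NDEA+CFT-1 replicate 2. With groups centred it was 0.754 (exact permutation p = 0.161, adjusted 0.451), above that of Acly with Fasn. With Fasn its r was 0.483 (adjusted permutation p = 0.281). Srebf1 followed Acaca with r = 0.738 (adjusted permutation p = 0.0564; rho = 0.552, adjusted 0.224), and as deposited this rested on NDEA+CFT-1 replicates 1 and 2, without which r was 0.394. With groups centred it was 0.808, the highest of the 10 pairs in that setting (exact permutation p = 0.0841, adjusted 0.421). Srebf1 had r = 0.428 with Acly, 0.187 with Fasn and 0.239 with Scd, with adjusted permutation p of 0.336 or more. No pair with Srebf1 had an adjusted p under 0.05 as deposited, while that with Acaca reached 0.0423 after scaling (r = 0.724).

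**Figure D3:**
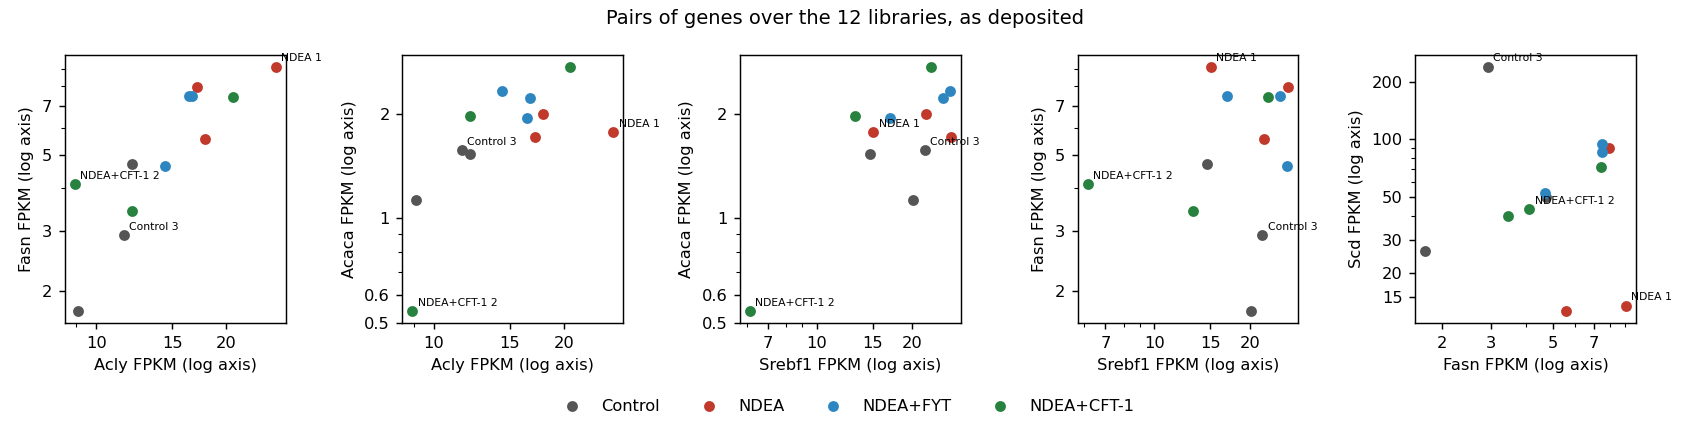
FPKM of 2 genes against each other in the 12 libraries as deposited, 1 point per library, colored by group, both axes log; 3 libraries are named. Acly and Fasn rise together (r = 0.863 on log2(FPKM + 1)), Srebf1 and Fasn do not line up (r = 0.187), and against Fasn most libraries lie on 1 line for Scd, with NDEA replicates 1 and 2 below it and Control replicate 3 above.

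The r of Scd with the other genes ran from -0.204 to 0.239 as deposited, with adjusted permutation p of 0.706 or more. After scaling it reached 0.374 with Srebf1, and after quantile normalization 0.392 with Srebf1 and 0.444 with Acaca, each with an adjusted permutation p above 0.05. Its ratio to Fasn within a library, which needs no scaling between libraries, showed 3 libraries standing apart (a ratio looked at after its values were seen). The ratio of FPKM was 15.1, 10.6 and 82.1 in Control, 1.5, 2.27 and 11.4 in NDEA, 11.3, 11.5 and 12.6 in NDEA+FYT, and 11.6, 10.5 and 9.69 in NDEA+CFT-1. So 9 of the 12 libraries lay between 9.69 and 15.1, across all 4 groups, and the other 3 were Control replicate 3 far above and NDEA replicates 1 and 2 far below. All 6 tea libraries were within 9.69 to 12.6, with a group mean of 11.8 ± 0.7 for FYT and 10.6 ± 0.959 for CFT-1 (SD, n = 3). In Control replicate 3 the level of Fasn, 2.91 FPKM, was within the range of its group, and Scd rested on 26439 reads. In NDEA replicates 1 and 2, Fasn was above every Control library while Scd was below every other library. No test was made of these ratios, which were chosen with their values known.

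**Figure D4:**
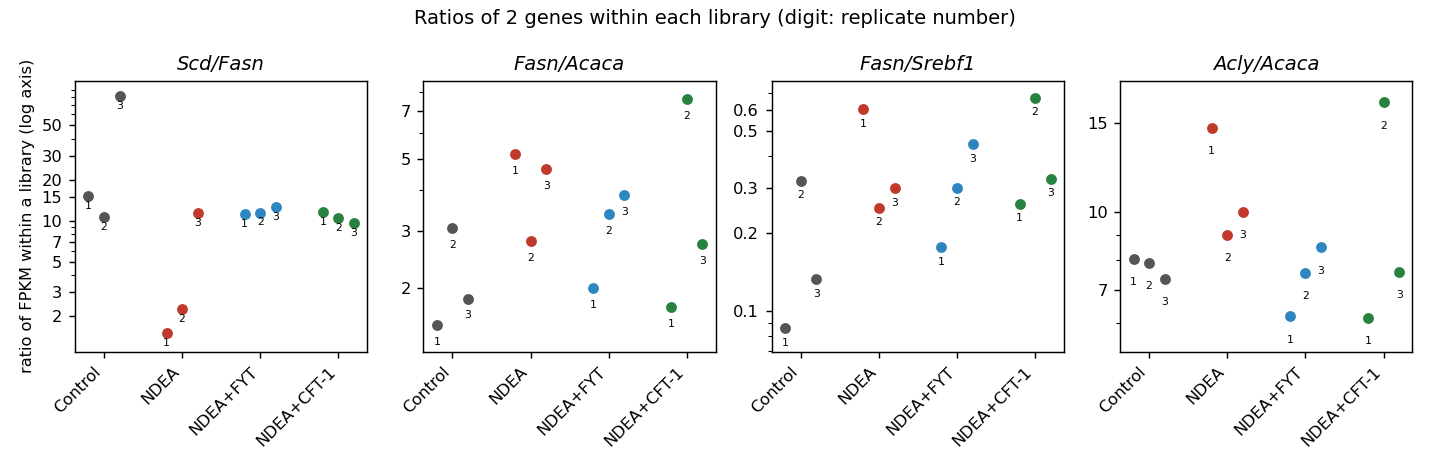
Ratio of the FPKM of 2 genes within each library, on log axes, 1 point per library with its replicate number. Scd/Fasn stays between 9.69 and 15.1 in 9 libraries, with 82.1 in Control replicate 3 and 1.5 and 2.27 in NDEA replicates 1 and 2.

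Of 8 ratios looked at, Scd/Fasn was not the only one with a narrow band in 9 of the 12 libraries. The narrowest band that held 9 libraries was 1.46-fold wide for Acly/Acaca (6.15 to 8.98), 1.49-fold for Fasn/Acly (0.31 to 0.463), 1.56-fold for Scd/Fasn and 1.66-fold for Acaca/Srebf1 (0.0717 to 0.119), each with libraries of all 4 groups in it, and 1.84- to 5.41-fold for the other 4. Scd/Fasn differed from these in how far the remaining 3 libraries lay, with 54.7-fold between its lowest and highest library against 2.68-fold for Acly/Acaca, 2.42-fold for Fasn/Acly and 2.67-fold for Acaca/Srebf1. Outside the Acly/Acaca band were NDEA replicates 1 and 3 and NDEA+CFT-1 replicate 2. This ratio was 7.36 to 8.05 in Control, 8.98 to 14.7 in NDEA, 6.19 to 8.49 in NDEA+FYT and 6.15 to 16.5 in NDEA+CFT-1, which spanned the other 3 groups. Fasn/Acaca had a mean of 2.16 ± 0.807 in Control, 4.2 ± 1.25 in NDEA, 3.09 ± 0.964 in NDEA+FYT and 4.03 ± 3.14 in NDEA+CFT-1 (SD, n = 3), and the groups overlapped. Fasn/Srebf1 was 0.086, 0.320 and 0.133 in Control and 0.604, 0.251 and 0.299 in NDEA, so that 1 Control liver reached into the NDEA range.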

How the data were processed

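Livers of 12 rats were analysed, 3 for each of 4 groups, grouped by the sample labels. Per the submitters' processing notes and the methods, the authors trimmed reads with Trimmomatic, mapped them with HISAT2 to Rnor_6.0, removed PCR duplicates, counted unique reads (HTSeq 0.6.1) and deposited FPKM, 1 column per library, which is the unit used here. Counted reads were recovered from the FPKM steps: all 24718 genes above 0 came out whole within 0.02 reads. From the deposited FPKM, log2(FPKM + 1) was fitted for 11854 genes whose FPKM averaged 1 or more, with limma 3.58.1 in R 4.3.3 (eBayes with trend). The 10 pairs were tested with 100000 resamples (scipy 1.17.1). Counting was not stated to use strand, so reads of overlapping antisense genes cannot be told apart from a gene's own. The methods call the 3 libraries of a group biological replicates.

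Alternatives were median-of-ratios scaling, quantile normalization, library weights, 0.1 as pseudocount, all genes unfiltered or only those averaging 5 FPKM, eBayes without trend, only the groups compared, a replicate block and each library left out. Voom on the recovered reads was added after seeing the data. The members and lists were chosen with earlier results of these data known. The genes named are the 5 members. Other pathway genes, markers of liver cell types and the genes most alike each member were to be named too, but 0 IDs could be paired with symbols by the tables used here, so they were not analysed here, and the tissue label was not checked against markers. The study's own DEGSeq test was not run: limma on log2(FPKM + 1) had been chosen before the reads were recovered, for deposited values in FPKM.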

Additional observations from a re-analysis of the deposited data

How the results depend on the processing

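In each of the 6 comparisons and in the test over all 4 groups, 0 of the 5 genes were called under every alternative run, of which that with a mean of at least 5 FPKM tested 4 of them, without Acaca. Over all genes, calls were 0 too except for 19 in NDEA+CFT-1 minus NDEA, 3 in NDEA+CFT-1 minus Control and 1 in NDEA+CFT-1 minus NDEA+FYT with library weights, 2 in NDEA minus Control and 1 in NDEA+CFT-1 minus Control without Control replicate 2, and 1 each in 4 tests without a filter and in 4 tests without NDEA+FYT replicate 3. The replicate block likewise called 0. Over all genes tested, the correlation of deviations between libraries of the same number ran from -0.467 to 0.282 over 18 pairs. Between libraries of unlike number it ran from -0.248 to 0.388 over 36 pairs. These values do not describe single genes, and for Scd replicate 3 was the highest library of every group. What the replicate numbers stand for is not given in the labels. Of the differences of single genes, the following changed sign, all of them uncalled. Median-of-ratios scaling gave -0.079 for Srebf1 in NDEA minus Control and -0.067 for Scd in NDEA+FYT minus Control. Quantile normalization gave -0.037 for Srebf1 and -0.026 for Acaca in NDEA minus Control, and 0.15 for Acaca in NDEA+CFT-1 minus NDEA. Library weights gave 0.47 for Scd in NDEA minus Control, 0.16 for Acaca and -0.19 for Scd in NDEA+CFT-1 minus NDEA, -0.11 for Srebf1 in NDEA+FYT minus NDEA, and 0.28 for Scd in NDEA+CFT-1 minus Control. Leaving out 1 library in turn gave -0.028 to 0.36 for Srebf1 in NDEA minus Control, -0.40 to 0.24 for Acaca in NDEA+CFT-1 minus NDEA, -0.11 to 0.29 for Srebf1 and -0.36 to 0.016 for Fasn in NDEA+FYT minus NDEA, -0.56 to 0.0052 for Acly and -0.56 to 0.076 for Acaca in NDEA+CFT-1 minus NDEA+FYT. It gave -0.055 to 0.51 for Acly, -0.17 to 0.47 for Acaca and -1.12 to 0.46 for Scd in NDEA+CFT-1 minus Control, and -0.53 to 1.04 for Scd in NDEA+FYT minus Control. Without a change of sign, Acly in NDEA+FYT minus NDEA ranged from -0.43 to -0.14, and in NDEA+FYT minus Control Srebf1 ranged from 0.085 to 0.44 and Fasn from 0.65 to 1.18, Fasn with an unadjusted p above 0.05 without Control replicate 1. Fasn in NDEA+CFT-1 minus NDEA+FYT ranged from -0.64 to -0.18. In injected minus Control livers, the ranges without 1 library were -0.216 to 0.122 for Srebf1, 0.413 to 0.627 for Acly, 0.154 to 0.352 for Acaca, 0.589 to 1.12 for Fasn and -1.24 to 0.334 for Scd. Of the 10 pairs, 2 had an adjusted p under 0.05 as deposited, 1 after quantile normalization and 0 with groups centred. The r of Fasn and Scd turned to 0.0603 after scaling, 0.156 after quantile normalization and 0.366 with groups centred, and that of Acly and Scd to 0.127 with groups centred. Without the 2 farthest libraries r turned to -0.0628 for Srebf1 and Acly, -0.0385 for Srebf1 and Fasn, 0.051 for Acly and Scd and -0.0766 for Acaca and Scd. The cause was not tested. The alternatives for other pathway genes could not be run without symbols. The lowest value, Acaca in NDEA+CFT-1 replicate 2, rested on 74 reads.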

Other observations

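NDEA+CFT-1 replicate 2 had the lowest Srebf1 (6.15 FPKM), Acly (8.92 FPKM) and Acaca (0.54 FPKM) of the 12 libraries as deposited, but not the lowest Fasn (4.11 FPKM) or Scd (43.2 FPKM). After scaling, Control replicate 1 was lowest in Acly (9.19 FPKM against 10.6 FPKM). In NDEA+CFT-1 replicate 2 the Acly/Acaca ratio of 16.5 and the Fasn/Acaca ratio of 7.61 were the highest of the 12, and the Scd/Fasn ratio of 10.5 was close to those of the other 2 libraries of its group. NDEA replicate 1 had the second highest of both ratios, 14.7 and 5.16. These 2 libraries also had the lowest weights of the 12, 0.234 and 0.138, when libraries were weighted by their spread over all genes, and what sets them apart was not tested.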
